A study of Mus musculus with 12 samples.

Results

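Chromatin accessibility at 46 genes for lysosomal enzymes and lysosomal membrane proteins was examined in cultured mouse cortical neurons. The genes were chosen by name, as the hydrolases, carriers, channels and membrane proteins of the lysosome, by a rule that used no measured value, although earlier results of these data were known when it was written. The peaks of all 12 libraries were merged into 263785 regions wherever they overlapped by at least 1 bp. Of these regions, 261 lay in the body of 1 of the 46 genes or within 5 kb upstream of one of its annotated start sites. The genome-wide annotation held 21933 protein-coding genes on the same chromosomes.

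Accessibility was measured by ATAC-seq, where Tn5 transposase cuts open chromatin and leaves adapters for sequencing. Primary cortical neurons came from wild-type C57BL/6 embryos at embryonic day 18. Each of 4 groups had 3 libraries, all carrying the batch label 1. The PBS group received vehicle for 7 days. The PFF group received preformed fibrils of human α-synuclein, the protein that aggregates in Parkinson's disease, for 7 days. The PFF+MLi-2 group received the same fibrils and, for the last 5 days, MLi-2, which blocks the LRRK2 kinase. The PFF+Rab5 ASO group received the fibrils and, for the last 3 days, antisense oligonucleotides against Rab5a and Rab5b, which encode small GTPases of early endosomes. These cultures hold mainly neurons with few glia, per the study's methods, and every treated group other than PBS contained fibrils. Libraries of MLi-2 or Rab5 ASO without fibrils, or of a control oligonucleotide, were not analysed here. The free-text descriptions of both treated groups name PBS in place of PFF, and the titles and treatment labels, which name PFF, were followed.

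Lysosomes degrade material delivered by endocytosis and autophagy. Soluble hydrolases such as cathepsins, glycosidases, sulfatases and lipases do the cutting at acid pH, while membrane proteins line the organelle and move ions and products across it. Many of the genes share the CLEAR element, an E-box with the core CACGTG that is bound by TFEB and TFE3, transcription factors that enter the nucleus when lysosomes are stressed. Mutations in most of these hydrolases and carriers cause lysosomal storage diseases, several of them with neurodegeneration.

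The E-box was searched within 100 bp of the summit of each gene's main promoter region. That region was, among the regions within 1 kb of a start site, the one with a peak in the most libraries and then with the highest peak. The letters CACGTG, which read the same on both strands, stood in 16 of the 45 windows whose promoter had a peak in all 12 libraries, or 35.6%. Over all 13784 protein-coding genes with such a promoter the share was 8.30%. The extended form TCACGTGA, which contains the first motif, stood in 7 of 45 windows, or 15.6%, against 1.60% over all these genes. The match is of letters alone and does not show binding. The stretches with the extended form are given here because they carry the shared element at the accessible summit. They are 30 bases of GRCm38 on the strand of the gene, with the E-box in capitals, read from the RefSeq genome sequence.
Ctsb chr14:63122430-63122459: gcggtcaagcatCACGTGacgaatcagccc
Arsa chr15:89476160-89476189: tcagccaattgtCACGTGaccgcgggcgta
Clcn7 chr17:25133386-25133415: ccgatgatagatCACGTGagacctgggcgc
Cln3 chr7:126583340-126583369: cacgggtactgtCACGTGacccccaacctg
Mcoln1 chr8:3500462-3500491: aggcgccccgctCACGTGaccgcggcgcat
Lamp1 chr8:13159209-13159238: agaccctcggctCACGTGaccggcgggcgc
Lamp1 chr8:13159236-13159265: cgcggcactgctCACGTGacaggcgctgcc
Hexa chr9:59539620-59539649: ttccctcccgttCACGTGaccctccgattg

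Lamp1, which encodes a major glycoprotein of the lysosomal membrane, had 6 E-boxes within 100 bp of its summit, 4 of them upstream of the start site. The 150 bases that end at the base before that start site are shown because no other lysosomal promoter had as many. The stretch of Lamp2, its sister gene, is set beside it as the highest promoter of the group. That of Ctsz, a carboxypeptidase of the cathepsin family, is shown as the lowest of those with a peak in all 12 libraries. Capitals mark E-boxes.
Lamp1 chr8:13159011-13159160: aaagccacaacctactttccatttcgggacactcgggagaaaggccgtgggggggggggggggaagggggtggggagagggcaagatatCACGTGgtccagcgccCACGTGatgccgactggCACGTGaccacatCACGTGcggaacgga
Lamp2 chrX:38456455-38456604: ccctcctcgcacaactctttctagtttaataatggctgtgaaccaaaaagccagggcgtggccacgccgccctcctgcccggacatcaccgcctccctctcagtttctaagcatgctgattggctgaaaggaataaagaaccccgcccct
Ctsz chr2:174439040-174439189: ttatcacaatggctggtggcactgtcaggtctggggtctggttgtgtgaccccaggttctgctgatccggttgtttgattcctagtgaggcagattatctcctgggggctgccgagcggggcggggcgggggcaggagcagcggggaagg

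In all, the 16 genes held 25 E-boxes, of which 23 lay within 100 bp of the nearest annotated start site. The exceptions were 1 of the 2 in Hexa, at 143 bp downstream, and the one in Idua, at 482 bp downstream. Besides the 7 genes above, Cd63, Naglu, Sgsh, Gaa, Laptm4b, Ctsf, Idua, Ctsd and Glb1 had the core motif without the extended form. The median percentile of the promoters with an E-box was 94.0 and of those without it 95.8, whereas over all 13784 genes the medians were 93.7 with it and 92.2 without. Among 40 further lysosomal genes outside the 46, 8 of 34 windows held the core motif and 6 the extended form. In the 103 intron regions of the 46 genes the core motif stood in 3, or 2.91%, against 3.26% of 102207 intron regions of all genes.

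**Figure D1:**
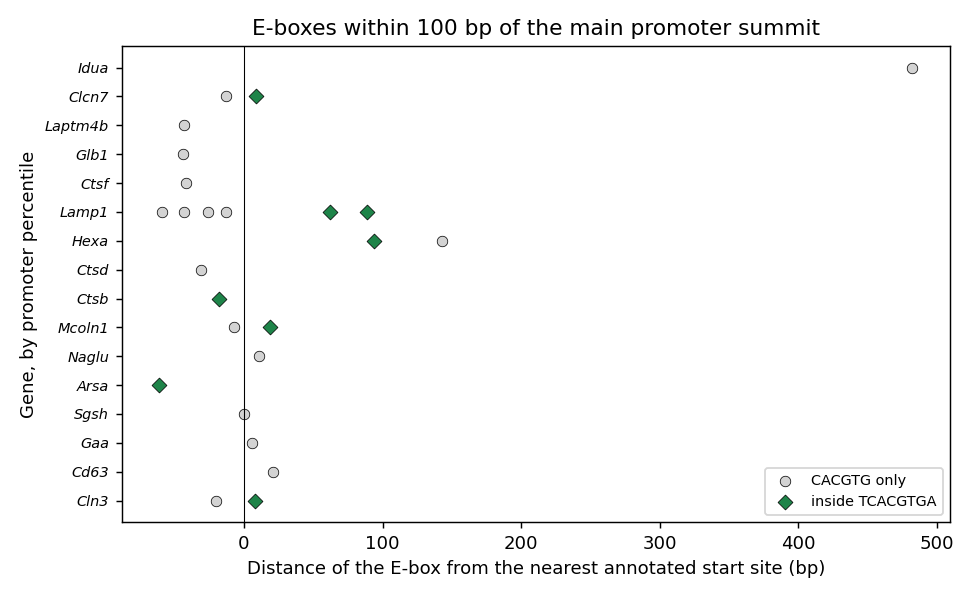
Position of each E-box (points) within 100 bp of the main promoter summit of 16 lysosomal genes, in bp from the nearest annotated start site (negative is upstream), with genes ordered from the lowest (bottom) to the highest (top) promoter percentile. Green diamonds mark the extended form, present in 7 genes, and 23 of the 25 E-boxes lie within 100 bp of the start site.

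The peak lists held 137417 to 184717 peaks per library, and the median pileup of fragments at a summit was 16 to 18 in a random sample of each list. Relative depth, read from the background of each list, was 0.775 to 0.919 for PFF and overlapped with the 0.912 to 0.976 of PBS. It was highest in the PFF+Rab5 ASO libraries (1.05 to 1.31), where median peak widths were also the smallest (112 to 124 bp against 127 to 139 bp elsewhere). Promoters of all 10 neuronal markers examined, including Map2 and Syn1, had a peak in all 12 libraries. Their mean percentile was 65.4 to 65.9 in the PFF libraries and 67.6 to 72.5 in the other groups. The members did not move together, since Gad1 lay at 22.0, 8.42 and 36.9 in PFF against 62.2, 54.5 and 36.0 in PBS, while Stmn2 lay at 71.9, 78.4 and 79.9 against 70.3, 64.3 and 76.3. Of 5 microglial markers, Cx3cr1 and Aif1 had no promoter region in any library, and 0 of 5 had a peak in all 12. Of 5 astrocyte markers, 3 had a promoter peak in all 12 libraries, as did 2 of 5 markers of the oligodendrocyte lineage, and the mean percentile over the astrocyte list, counting a missing peak as 0, was 59.1 to 66.4 for PBS, 49.5 to 54.7 for PFF, 59.6 to 64.0 for PFF+MLi-2 and 43.1 to 58.9 for PFF+Rab5 ASO. In PFF, Aqp4 was lower (11.2, no peak and 17.5, against 56.6, 21.6 and 47.2 in PBS) and Gja1 was not (72.9, 58.3 and 56.7 against 62.2, 64.6 and 24.6). The part of these differences in the results below was not tested.

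Height was measured as the percentile of a peak's fold enrichment within the list of its own library, so that 100 is the tallest peak of that library. The main promoter region had a peak in all 12 libraries for 45 of the 46 genes, or 97.8%, against 62.8% of all protein-coding genes. These promoters were tall, with a median percentile of 95.0 against 92.4 over all genes whose promoter had a peak in all 12 libraries. Their mean percentile lay above that median of all genes in 32 of the 46, and the median pileup at these summits was 53 fragments. The summit lay within 100 bp of an annotated start site in 40. In 8 genes (Idua, Gla, Galns, Npc2, Glb1, Hexa, Sgsh and Ctsa) the region also covers the promoter of a neighbouring gene, and the peak cannot be assigned to 1 of the pair.

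The membrane proteins comprised Lamp1, Lamp2, Scarb2, Cd63, Laptm4a, Laptm4b, Tmem192 and Ostm1, and their median promoter percentile was 96.3 (range 86.7 to 99.8). Lamp2, which also serves as the receptor of chaperone-mediated autophagy, had the tallest promoter of the 46, at 99.5 to 100 in the 12 libraries (GRCm38 chrX:38456324-38456638). Cd63, a tetraspanin of late endosomes, had the lowest of this class, with 85.7 ± 3.21 for PBS, 84.2 ± 2.86 for PFF, 85.9 ± 7.01 for PFF+MLi-2 and 91.0 ± 0.724 for PFF+Rab5 ASO (mean ± SD, n = 3 libraries each). The transporters, channels and membrane enzymes were Mcoln1, Clcn7, Npc1, Slc17a5, Cln3 and Hgsnat, with a median of 97.8 (82.6 to 98.6). Within this class only Cln3, mutated in juvenile Batten disease, had a mean below 90, at 71.4 to 90.5 over the 12 libraries.

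Of the proteases, Ctsl had the tallest promoter, at 98.5 to 99.7 in the 12 libraries, and the class had a median of 94.3 over the 7 genes with a peak in every library (Ctsa, Ctsb, Ctsd, Ctsf, Ctsl, Ctsz and Tpp1). The 3 lowest promoters of all 46 genes were also of this class. Ctsa, which encodes protective protein cathepsin A, lay at 69.4 to 86.2. Ctsh, an aminopeptidase, had a peak in 8 of 12 libraries, at 29.3 and 56.2 in 2 PBS libraries, 48.8 and 33.6 in 2 PFF libraries, 48.0, 39.6 and 74.8 with MLi-2 added and 39.4 in 1 Rab5 ASO library. Its summit pileup was 11 to 19 fragments where it was called. Ctsz lay at 70.6, 36.4 and 12.3 for PBS, 63.5, 28.2 and 46.4 for PFF, 57.0, 20.2 and 15.1 for PFF+MLi-2 and 71.7, 50.8 and 44.7 for PFF+Rab5 ASO. The groups overlapped at Ctsz, and each of them spanned more percentiles than separated the highest and lowest group means.

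The glycosidases (Hexa, Gla, Gaa, Glb1, Gusb, Neu1, Naglu, Idua, Manba, Man2b1 and Fuca1), which remove sugars from glycoproteins, glycolipids and glycosaminoglycans, had a median promoter percentile of 95.0. Gusb, β-glucuronidase, was the lowest of them at 69.4 to 88.8. The sulfatases Galns, Arsa, Arsb, Sgsh and Ids had the lowest class median, 89.8, with Ids at 98.8 to 99.9 and Arsb with a mean of 88.2. The lipid hydrolases and carriers (Asah1, Smpd1, Lipa, Ppt1, Npc2, Psap and Gm2a), grouped here with Grn, had a median of 95.3. Lipa, lysosomal acid lipase, lay at 99.4 to 99.8 and Asah1, acid ceramidase, at 98.5 to 99.8. The 5 tallest promoters of the 46 were therefore those of Lamp2, Lipa, Asah1, Ids and Ctsl, which differ by less than 1 percentile, and the 5 lowest those of Cln3, Gusb, Ctsa, Ctsh and Ctsz.

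**Figure D2:**
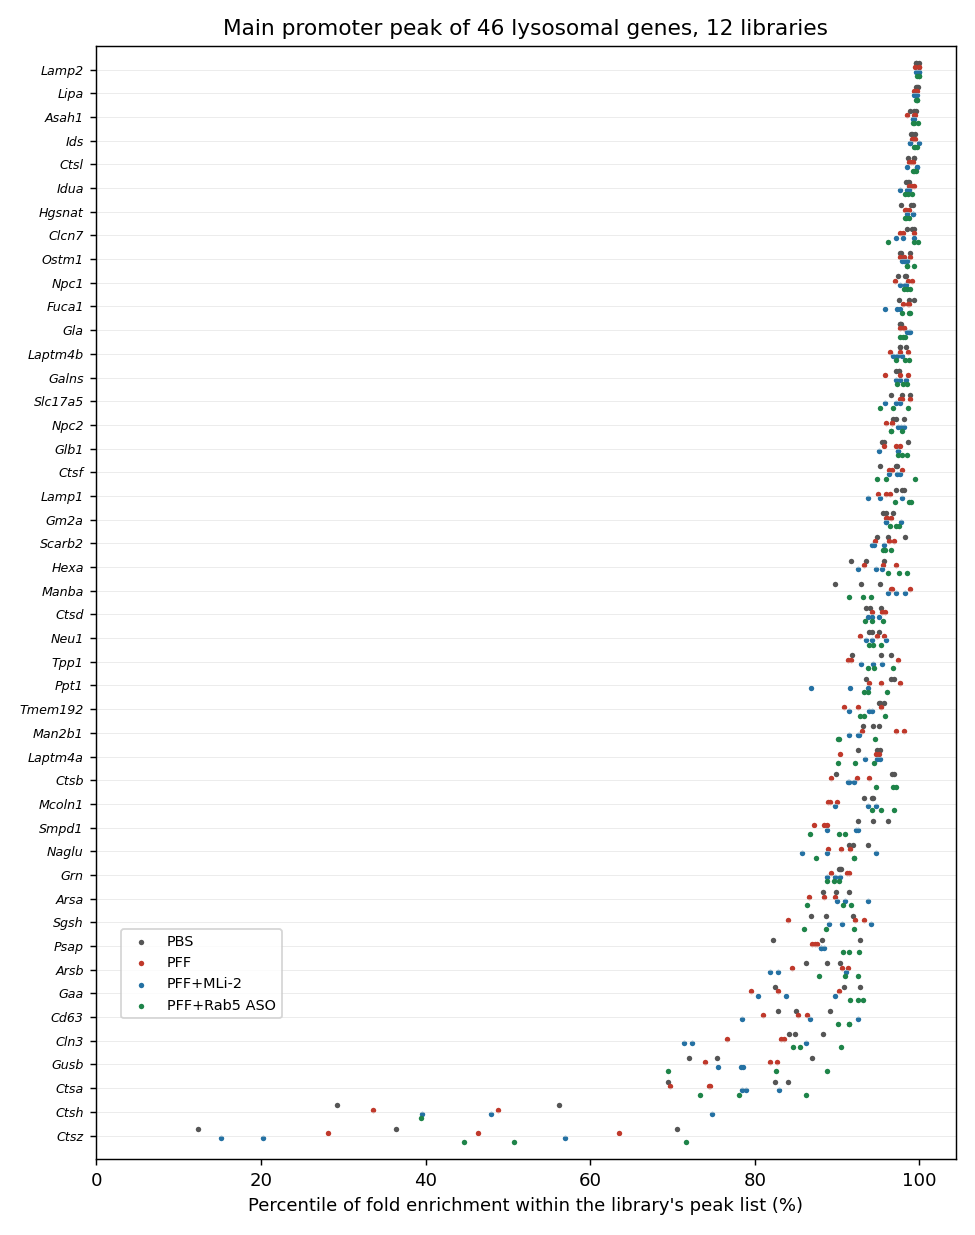
Percentile of fold enrichment (horizontal axis, %) of the main promoter peak of each of 46 lysosomal genes, 1 point per library, coloured by group. Points of the 4 groups lie over each other for most genes above 90, and they spread out for Ctsh and Ctsz.

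Promoters recurred across libraries more often than introns. Peaks were present in every library at 60 of the 112 promoter regions and in a single library at 22. The same counts for the 103 intron regions were 21 and 36. Over all merged regions the shares in all 12 libraries were 49.9% for promoters and 22.5% for introns, against 53.6% and 20.4% at the lysosomal genes. The other 46 regions were 29 in exons and 17 upstream, of which 6 and 7 had a peak in every library. Introns were unevenly filled, since Arsb, a long gene for arylsulfatase B, held 30 of the 103 intron regions, Ostm1 13 and Scarb2 10. The number of intron regions called per library was 40 to 49 for PBS, 48 to 59 for PFF, 37 to 43 for PFF+MLi-2 and 49 to 57 for PFF+Rab5 ASO. The ranges of PFF and PFF+MLi-2 did not overlap, and neither did their total numbers of peaks (151900 to 172377 and 145497 to 147991).

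**Figure D3:**
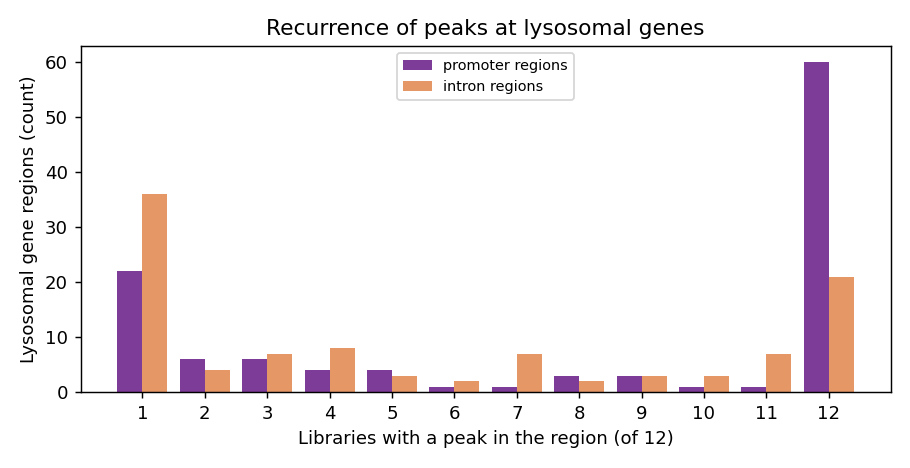
Number of lysosomal gene regions (vertical axis) by the number of libraries, of 12, that had a peak in them (horizontal axis), with promoter regions in purple and intron regions in orange. The bar at 12 libraries stands at 60 promoter and 21 intron regions, and the bar at 1 library at 22 and 36.

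Height was then compared between groups over the 94 lysosomal regions with a peak in all 12 libraries (60 promoter, 21 intron, 6 exon and 7 upstream regions). The rank of fold within a library was turned into a normal score, and limma was fitted over all 72465 regions of this kind with Benjamini-Hochberg adjustment over all of them. A difference of 1 on this scale is 1 standard deviation of the scores. Overlap of groups was judged on these scores, and in at least 1 comparison below the groups overlap on the percentile over all peaks, though not on the scores, for Mcoln1, Arsa, Idua, Lamp2, Slc17a5 and Scarb2. Across the 4 groups, limma's F test gave an adjusted p under 0.05 for 0 of the 94 lysosomal regions, against 3.5% of all regions, and 9 of 94 had an unadjusted p under 0.05 (9.57%, against 21.7% of all regions). The lowest adjusted p by limma was 0.0519, for an intron region of Asah1. Asah1 therefore lay just outside the threshold, and it passed (adjusted p = 0.0415) when PFF replicate 1 was left out.

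In PFF vs PBS, which asks what fibrils alone change, 0 of 94 lysosomal regions passed limma's adjusted threshold, as did 0% of all regions. At an unadjusted p under 0.05 there were 5 of 94 (5.32%, against 9.72% of all regions). The 3 libraries of PFF lay above all 3 of PBS in 5 lysosomal regions, where 7.07% of all regions did, and below in 9, where 8% did. As shares of the 94 these are 5.32% and 9.57%. The median difference over the 60 promoters was −0.09, with 21 positive and 39 negative, and over all 18390 promoter regions it was −0.08. Without PFF replicate 2 the lysosomal median was −0.04. On the rank of the −log10 p-value in place of fold the lysosomal median was −0.01, and that over all promoters also −0.01, so the negative median of the fold ranks was matched by promoters of all genes and was near 0 on the other measure. The intron median was 0.10, with 12 of 21 positive, beside 0.01 over all intron regions, and it was 0.00 without PBS replicate 2 and 0.04 without PBS replicate 1.

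The main promoters whose PFF and PBS libraries did not overlap were 1 higher and 6 lower in PFF of the 45, or 2.22% and 13.3%, where 3.97% and 10.7% of all promoter regions were. Manba, β-mannosidase, was the higher one. Its promoter lay at 89.7, 92.9 and 95.2 in PBS and at 96.7, 98.9 and 96.5 in PFF, with summit pileups of 28, 29 and 35 against 38, 44 and 37 fragments. The difference was 0.59 ± 0.25 (SE) with an adjusted p of 0.484 by limma. Smpd1, acid sphingomyelinase, lay at 92.5, 96.2 and 94.4 in PBS and at 88.4, 87.2 and 88.8 in PFF, a difference of −0.55 ± 0.22 with an adjusted p of 0.462 by limma. Mcoln1, the calcium channel TRPML1, lay at 94.4, 94.2 and 93.3 in PBS and at 89.1, 88.9 and 90.0 in PFF. Its difference was −0.42 ± 0.20, and its pileups of 58, 51 and 52 fragments in PBS overlapped with 52, 53 and 50 in PFF. For Lamp1 the values were 98.1, 97.9 and 97.1 in PBS and 95.9, 96.4 and 95.0 in PFF, and the difference was −0.35 ± 0.20. None of these promoters passed the adjusted threshold. Of the introns, one in Ctsb, the cysteine protease cathepsin B, lay at 63.5, 58.7 and 61.1 in PBS and 71.7, 69.1 and 73.0 in PFF (0.34 ± 0.20), and one in Arsb at 97.4, 95.7 and 97.2 against 98.2, 97.5 and 99.3 (0.33 ± 0.22, but 0.16 without PFF replicate 3).

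In PFF+MLi-2 vs PFF, which asks what LRRK2 inhibition changes in the presence of fibrils, limma again called 0 of 94 lysosomal regions and 0% of all regions, with 8 of 94 at an unadjusted p under 0.05 (8.51%, against 11.4% of all regions). Groups did not overlap, with PFF+MLi-2 higher, in 13 lysosomal regions (13.8%, against 10.1% of all regions) and, with PFF+MLi-2 lower, in 6 (6.38%, against 7.55%). The median over the 60 promoters was 0.08 (0.05 without PFF replicate 2), with 41 positive, beside 0.09 over all promoter regions, and on the −log10 p rank it was −0.01. This comparison uses the same 3 PFF libraries as the one before, so the opposite signs of the promoter medians are not 2 independent observations. Ctsa lay at 74.4, 69.7 and 74.6 in PFF and 82.9, 78.4 and 78.9 in PFF+MLi-2, a difference of 0.46 ± 0.19. Mcoln1 lay at 89.8, 93.7 and 94.7 in PFF+MLi-2, a difference from PFF of 0.36 ± 0.20. Arsa, arylsulfatase A, was higher by 0.32 ± 0.19. Ppt1, palmitoyl-protein thioesterase, lay at 97.6, 95.3 and 93.9 in PFF and 91.6, 93.7 and 86.8 in PFF+MLi-2 (−0.40 ± 0.22), and the fucosidase gene Fuca1 was lower by less (−0.26 ± 0.19). Main promoters with non-overlapping groups numbered 7 higher (15.6%, against 15.5% of all promoter regions) and 2 lower (4.44%, against 4.58%), and for the 5 named the adjusted p-values by limma ran from 0.420 to 0.641.

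The largest differences in this comparison were at an Asah1 intron and at a secondary promoter region of Gaa. The Asah1 intron region lay at 75.4, 69.0 and 77.2 for PBS, 78.8, 87.1 and 88.7 for PFF, 68.2, 51.3 and 59.5 for PFF+MLi-2 and 90.4, 81.0 and 86.8 for PFF+Rab5 ASO. All 3 PFF+MLi-2 libraries were thus the lowest of the 12. Its difference was −0.98 ± 0.25 against PFF, with an adjusted p of 0.252 by limma. Gaa encodes acid α-glucosidase, and upstream of its main promoter lies a smaller region at chr11:119267271-119267451, picked out after its values were seen. It lay at 23.5, 14.5 and 44.1 for PBS, 14.8, 3.45 and 5.16 for PFF, 44.1, 37.0 and 15.8 for PFF+MLi-2 and 11.4, 2.62 and 27.8 for PFF+Rab5 ASO. Its difference was 0.98 ± 0.26 between PFF+MLi-2 and PFF (adjusted p = 0.265 by limma) and −0.74 ± 0.24 between PFF and PBS (adjusted p = 0.364). An intron of Idua, the iduronidase gene, was higher in PFF+MLi-2 than in PFF by 0.66 ± 0.23, and the Arsb intron named above was lower by 0.44 on the same scale, at 96.8, 94.8 and 95.8 (−0.44 ± 0.22). In limma's F test over the 4 groups, the Asah1 and Ctsb introns had the lowest adjusted p-values of the introns (0.0519 and 0.163). For this reason the 101 bases around their summits are given. Both are on the gene's strand in GRCm38, and capitals mark the AP-1 motif TGANTCA, searched on both strands with the E-box and the CRE motif TGACGTCA.
Asah1 intron chr8:41364615-41364715: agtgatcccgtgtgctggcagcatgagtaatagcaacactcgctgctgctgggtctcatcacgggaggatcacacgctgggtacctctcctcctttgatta
Ctsb intron chr14:63132399-63132499: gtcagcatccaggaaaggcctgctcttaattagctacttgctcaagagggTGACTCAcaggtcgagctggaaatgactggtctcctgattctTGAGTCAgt

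The AP-1 motif, bound by Fos and Jun proteins, stood within 100 bp of the summit in 13 of the 103 lysosomal intron regions, or 12.6%, against 11.9% of all 102207 intron regions. In the main promoters it stood in 3 of 45 windows (6.67%, against 2.61% of all main promoters). CRE was in 0 of 45 windows, where 3.36% of all main promoters had it. GC boxes (GGGCGG) were in 77.8% against 62.7%, CCAAT in 31.1% against 32.7% and the ETS motif CCGGAAG in 11.1% against 15.3%, and only these letters on both strands were searched.

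In PFF+Rab5 ASO vs PFF, which asks what lowering Rab5 changes in the presence of fibrils, limma called 3.83% of all regions and 0 of the 94 lysosomal regions. At an unadjusted p under 0.05 there were 13 of 94 (13.8%, against 21.1% of all regions). Groups did not overlap, with PFF+Rab5 ASO higher, in 11 lysosomal regions (11.7%, against 13.5%) and, with it lower, in 7 (7.45%, against 12.4%). The promoter median was 0.08 (0.02 without PFF+Rab5 ASO replicate 2), with 38 of 60 positive, beside 0.07 over all promoters, and on the −log10 p rank it was −0.03. The intron median was −0.19, with 7 of 21 positive, beside −0.03 over all 23041 intron regions. With regions required in only the 6 libraries compared, the intron median was −0.06.

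All 3 PFF+Rab5 ASO libraries lay above PFF at 7 main promoters (15.6%, against 15.1% of all promoter regions) and below at 1 (2.22%, against 6.75%). Of the 7, Mcoln1 had the largest difference. Its 3 PFF+Rab5 ASO libraries lay at 94.2, 95.3 and 96.9, above the PFF values of 89.1, 88.9 and 90.0, and the pileup was 61, 58 and 61 fragments against 52, 53 and 50. The difference was 0.54 ± 0.20, with an adjusted p of 0.156 by limma. Gaa lay at 92.5, 91.6 and 93.2 in PFF+Rab5 ASO and at 90.2, 79.6 and 82.8 in PFF (0.52 ± 0.22). Lamp1 lay at 97.0, 99.0 and 98.7, above the PFF libraries by 0.45 ± 0.21. The one below was that of Manba. It lay at 94.1, 93.1 and 91.5, a difference of −0.63 ± 0.21 with an adjusted p of 0.127 by limma, and these values lie within the range of the PBS libraries. Among introns, that of Ctsb lay at 34.7, 58.3 and 46.8 in PFF+Rab5 ASO against 71.7, 69.1 and 73.0 in PFF. Its difference was −0.82 ± 0.24, and its adjusted p of 0.0861 by limma was the lowest of the 94 regions in this comparison. A Lamp2 intron lay at 65.6, 55.4 and 79.0 against 91.0, 82.6 and 78.8, and on the scale of shared regions it was lower by 0.84 (−0.84 ± 0.29). In Arsb one intron was lower (−0.51 ± 0.22) and another higher (0.73 ± 0.33, but 0.32 without PFF replicate 3).

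The groups with MLi-2 or Rab5 ASO were also set against PBS. In PFF+MLi-2 vs PBS limma called 0 of 94 lysosomal regions and 0% of all regions, with 3 of 94 at an unadjusted p under 0.05 (3.19%, against 5.77%). Groups did not overlap in 6 lysosomal regions with PFF+MLi-2 higher (6.38%, against 5.21%) and in 3 with it lower (3.19%, against 5.12%). Of the 45 main promoters 3 were higher (6.67%, against 5% of all promoter regions) and 0 lower (against 4.56%). Manba lay at 97.2, 96.2 and 98.2 in PFF+MLi-2, above the PBS values, by 0.59 ± 0.24, with an adjusted p of 0.850 by limma. Gla, α-galactosidase A, lay at 98.5, 98.7 and 98.8 against 97.6, 97.8 and 97.6 in PBS (0.28 ± 0.20), and Arsa was higher by 0.17 ± 0.20. An intron of Slc17a5, the sialic acid transporter, lay at 83.9, 86.5 and 81.3 against 84.8, 62.0 and 62.8 (0.67 ± 0.26), and the Asah1 intron was lower (−0.47 ± 0.23).

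In PFF+Rab5 ASO vs PBS limma called 1.63% of all regions and 0 of the 94, with 7 of 94 at an unadjusted p under 0.05 (7.45%, against 18.7%). Groups did not overlap in 4 lysosomal regions with PFF+Rab5 ASO higher (4.26%, against 11.4%) and in 9 with it lower (9.57%, against 11.6%). Of the main promoters 1 was higher (2.22%, against 8.48% of all promoter regions) and 1 lower (2.22%, against 8.66%). Hexa, which takes part in the breakdown of gangliosides, lay at 97.5, 98.5 and 96.2 against 95.7, 91.7 and 93.5 (0.45 ± 0.21). Smpd1 lay at 90.2, 91.0 and 86.7, below PBS by 0.49 on the normal-score scale (−0.49 ± 0.22, adjusted p = 0.272 by limma). Smpd1 was thus below PBS in both PFF and PFF+Rab5 ASO, comparisons that share the PBS libraries. Introns of Psap (0.63 ± 0.23), Asah1 (0.56 ± 0.22) and Arsb (0.50 ± 0.23) were higher and introns of Lamp2 (−0.51 ± 0.22), Ctsb (−0.48 ± 0.24) and Scarb2 (−0.47 ± 0.22) lower. Psap encodes prosaposin, the precursor of the saposins, and Scarb2 the lysosomal membrane protein LIMP-2.

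**Figure D4:**
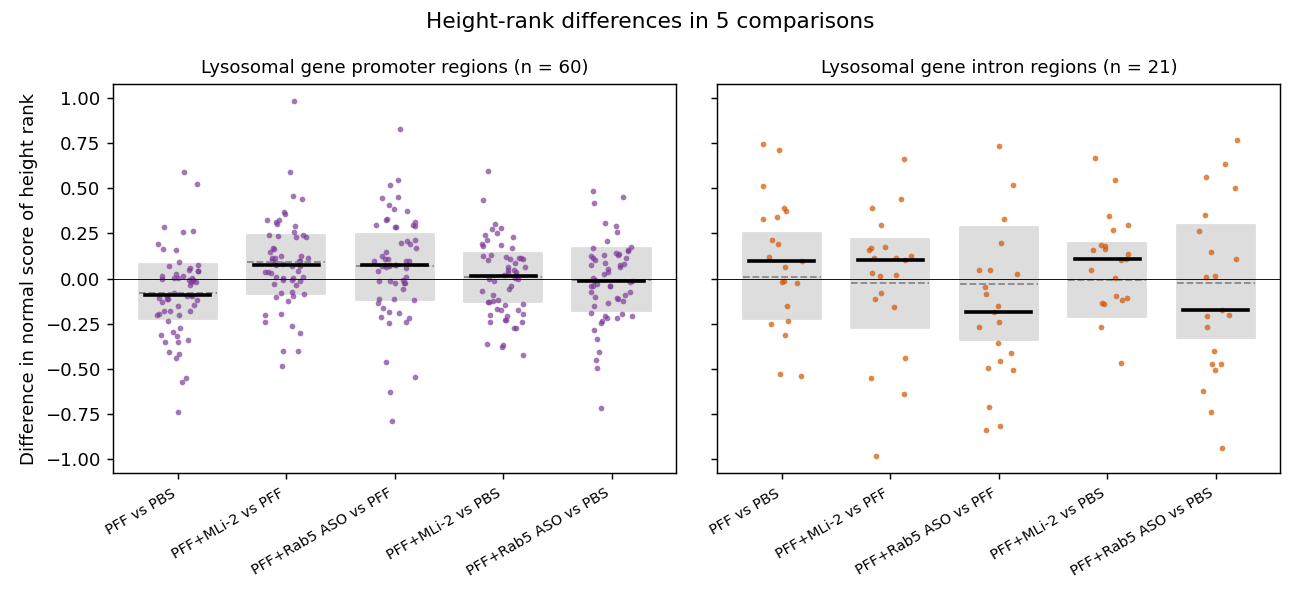
Difference in the normal score of height rank (vertical axis) for 60 promoter (left) and 21 intron (right) regions of the lysosomal genes in 5 comparisons, 1 point per region, with the median as a black bar, and the middle 50% (grey band) and median (dashed) of all regions of that class. The lysosomal promoter medians of −0.09, 0.08, 0.08, 0.01 and −0.01 lie on those of all promoters.

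Whole peaks were compared by calls. A region was gained where 3 of 3 libraries of the first group and 0 of 3 of the second had a peak, and lost in the reverse case, with no test. In PFF vs PBS, 2 of 222 lysosomal regions were gained and 1 lost, where 1.1% and 0.405% of all regions were. In PFF+MLi-2 vs PFF, 0 of 208 were gained and 4 lost (all regions 0.374% and 1.64%). In PFF+Rab5 ASO vs PFF, 2 of 228 were gained and 4 lost (2.64% and 1.94%). In PFF+MLi-2 vs PBS, 1 of 207 was gained and 4 lost (0.225% and 0.577%), and in PFF+Rab5 ASO vs PBS, 4 of 226 were gained and 2 lost (2.59% and 0.991%). The shares at the lysosomal genes were 0.901% and 0.450%, 0% and 1.92%, 0.877% and 1.75%, 0.483% and 1.93%, and 1.77% and 0.885% in the same order, all counts of at most 4 regions. The 24 calls fell on 16 regions in 8 genes, 12 of them introns, and 6 of those in Arsb. Pileups at the summits of these regions were 9 to 28 fragments with a median of 16. This is close to the median of each library's sampled peaks and below the 53 of the main promoters.

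The 6 Arsb introns were the largest set of such regions in 1 gene. Of these, 2 had a peak in the 3 PFF+Rab5 ASO libraries and in no other library. They lay at 54.9, 77.0 and 19.2 (chr13:93890111-93890251) and at 48.0, 39.3 and 41.7 (chr13:93909660-93909733). A further intron region, at chr13:93787859-93788036, had a peak in the 3 PFF+Rab5 ASO libraries (58.0, 35.7 and 41.7) and in PFF replicate 2 (14.2). Another, at chr13:93887138-93887267, ran the other way, with a peak in all 3 PFF libraries (26.4, 53.3 and 66.9) and all 3 PFF+MLi-2 libraries (39.9, 45.9 and 25.2), in PBS replicate 1 (24.1) and in no PFF+Rab5 ASO library. The 2 remaining Arsb introns had peaks in every group but PFF+MLi-2. One of these, at chr13:93900035-93900179, lay at 40.4, 32.2 and 12.2 in PFF and 86.0, 61.2 and 63.3 in PFF+Rab5 ASO. When limma was fitted over the 84857 regions with a peak in the 6 libraries compared, that region was higher in PFF+Rab5 ASO by 1.35 (adjusted p = 0.0475), and it was the 1 region of the 46 genes to pass in any pairwise fit. That fit called 3.05% of all its regions. Summits of these 4 regions with the higher calls in PFF+Rab5 ASO are shown on the strand of Arsb, 101 bases each. Of the motifs named above, an E-box and a CCAAT box stood within 100 bp of the summit of the first, both outside the bases shown, and none within 100 bp of the other summits.
Arsb intron chr13:93787899-93787999: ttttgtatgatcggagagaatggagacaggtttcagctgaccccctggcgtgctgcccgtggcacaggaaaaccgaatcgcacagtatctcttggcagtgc
Arsb intron chr13:93890151-93890251: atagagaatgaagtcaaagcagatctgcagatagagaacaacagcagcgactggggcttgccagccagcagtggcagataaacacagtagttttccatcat
Arsb intron chr13:93909652-93909752: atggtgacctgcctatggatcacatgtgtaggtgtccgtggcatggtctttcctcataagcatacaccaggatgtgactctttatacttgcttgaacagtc
Arsb intron chr13:93900042-93900142: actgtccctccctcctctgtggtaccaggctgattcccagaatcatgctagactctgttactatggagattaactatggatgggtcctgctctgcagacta

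Lamp1 had 2 of the regions gained or lost. The first is a small region that ends 2 bp before the main Lamp1 promoter region and covers the start of the Lamp1 stretch printed above, before its E-boxes, at chr8:13158847-13159066. It had no peak in PBS, and it lay at 3.64, 8.43 and 13.2 for PFF, 2.36 in PFF+MLi-2 replicate 1 and 43.4, 12.1 and 52.4 for PFF+Rab5 ASO. The second, upstream at chr8:13156748-13157002, lay at 6.71 and 5.64 in 2 PBS libraries, 53.0, 24.9 and 27.4 in PFF and 4.35 and 12.4 in 2 PFF+MLi-2 libraries, and had no peak in PFF+Rab5 ASO.

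A Galns intron region (chr8:122585125-122585239) had a peak in the 3 PFF libraries alone, at 6.82, 16.9 and 26.5, with pileups of 12, 12 and 14 fragments. It was the only region of the 261 with this pattern. A Lamp2 intron region (chrX:38403795-38404171) had a peak in 9 libraries, at 48.0, 29.9 and 17.7 in PBS, 61.3, 42.0 and 33.6 in PFF and 65.6, 70.3 and 63.3 in PFF+Rab5 ASO, and in no PFF+MLi-2 library. A Slc17a5 intron region had peaks in PBS (44.2, 17.9 and 17.7) and in 2 PFF+Rab5 ASO libraries (51.0 and 24.2). Ostm1, the β subunit of the chloride-proton exchanger Clcn7, had an intron region in all 3 PBS libraries and 2 PFF libraries, at 12.2 to 50.0, and in neither group with a treatment added to PFF. The other Ostm1 regions of this kind, one upstream and one within 1 kb of the gene's first start site, overlap the promoter of its neighbour Nr2e1 and lay at 0.566 to 12.4. Introns of Scarb2 and Idua completed the list, the first absent from PFF+Rab5 ASO and the second from PFF+MLi-2.

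**Figure D5:**
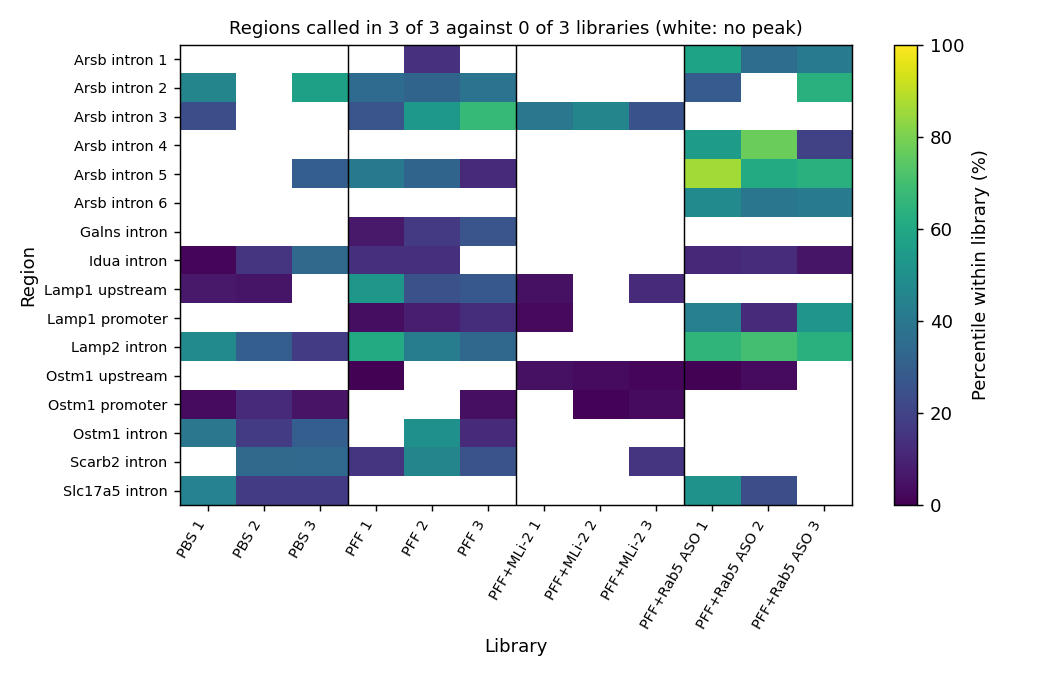
Percentile within the library (colour, 0 to 100%) of the 16 lysosomal regions that had a peak in 3 of 3 libraries of 1 group and 0 of 3 of another in at least 1 comparison, by library, with white for no peak. Arsb introns 4 and 6 have peaks in the 3 PFF+Rab5 ASO libraries alone and the Galns intron in the 3 PFF libraries alone.

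The 40 further lysosomal genes, which include Galc and the cathepsins C, K, O and S, gave 224 regions in 39 of them. Their main promoter had a peak in all 12 libraries in 34 of 40, with a median percentile of 95.3. Of the 78 regions tested for height, limma called 1 in PFF+Rab5 ASO vs PFF, where it called 3.83% of all regions. It called 1 in PFF+Rab5 ASO vs PBS (1.63% of all regions) and 0 in each of the other comparisons (0%). Unadjusted, 12 of 78 had a p under 0.05 by limma in PFF+Rab5 ASO vs PFF (15.4%, against 21.1% of all regions). In PFF+Rab5 ASO vs PBS there were 8 (10.3%, against 18.7%) and in PFF+MLi-2 vs PFF 5 (6.41%, against 11.4%). In PFF vs PBS and in PFF+MLi-2 vs PBS there were 3 (3.85%), against 9.72% and 5.77%. Both calls fell on an intron of Ctss, the cysteine protease cathepsin S. It lay at 72.9, 40.5 and 57.0 for PBS, 40.4, 66.8 and 51.5 for PFF, 69.3, 48.4 and 21.1 for PFF+MLi-2 and 93.0, 84.5 and 86.2 for PFF+Rab5 ASO. It rose by 1.53 ± 0.27 against PFF (adjusted p = 0.0236 by limma) and by 1.32 ± 0.26 against PBS (adjusted p = 0.0412). Both calls were near the threshold. The adjusted p by limma ran from 0.0291 to 0.0767 over 11 alternatives against PFF, with 7 past the threshold, and from 0.0481 to 0.116 over 11 against PBS, with 1 past it. The call against PFF was lost without PFF+Rab5 ASO replicate 1 or 3 or without PFF replicate 1 or 3. That against PBS was lost in all but 1 of the 11 alternatives. The alternatives that lost it include leaving out any 1 of the 6 libraries and the replicate block (adjusted p = 0.0736 by limma). The 3 PFF+Rab5 ASO libraries were the highest of the 12. Ctss is also known from microglia, and the mean percentile over the 5 microglial marker promoters, counting a missing peak as 0, was 0 to 3.24 for PFF+Rab5 ASO, 0 to 16.5 for PBS, 0 to 19.9 for PFF+MLi-2 and 6.38 to 22.3 for PFF, and its part in the call was not tested.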

How the data were processed

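ATAC-seq was measured in 12 libraries of mouse cortical neurons, 3 for each of 4 groups taken from the titles and treatment labels. Per the study's methods and the submitters' processing notes, the authors used Trim Galore 0.6.7 for trimming, Bowtie2 2.5.1 for alignment (GRCm38) and MACS2 2.2.7.1 for peaks of each library by itself. Peak-calling options, the handling of duplicates and any Tn5 shift are not given in the sources used here. The deposited lists give each peak's fold enrichment over local background (a ratio), −log10 p-value, −log10 q-value, score and summit. The score was not used. In a random sample of each library's peaks, the deposited fold and −log10 p-value together gave the whole-number pileup at the summit for 100%. The median pileup per library and relative depth, which used the most frequent background value, came from that sample. Total read numbers were not used.

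Regions were the merged peaks of all libraries (1916151 peaks), placed by GENCODE vM21 in the order promoter (within 1 kb of a start site), exon, intron and upstream (5 kb). Coordinates are 1-based GRCm38. Heights were compared with limma 3.58.1 (R 4.3.3) in fits of 6 libraries without covariates, on normal scores of the within-library rank of fold, over 72465 regions, after a check on simulated data. An exact test of 3 against 3 libraries cannot go below p = 0.1, so gained and lost regions were only counted. The study's methods call the libraries biological triplicates, and p-values measure the spread between these libraries. Alternatives were the rank of −log10 p, regions in all 6 libraries, 1 fit over 12, a replicate block, equal numbers of top peaks, a −log10 q of at least 3, 50% coverage of the region, at least 2 of 3 libraries, a promoter window of 500 bp and leaving out each library.

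Every member is described by its main promoter. Named with values were regions past the threshold, regions gained or lost, per comparison the 3 main promoters and 3 introns with the largest differences in each direction among those whose groups do not overlap, and the 5 highest and 5 lowest main promoters. The members, lists and tests were chosen with earlier results of these data known. Sequences were read with pysam from the RefSeq GRCm38.p6 genome.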

Additional observations from a re-analysis of the deposited data

How the results depend on the processing

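Of the 35 named height differences, each kept its direction and stayed above an adjusted p of 0.05 by limma in all 384 alternative fits. The smaller Gaa region and the Ctss intron, named after their values were seen, are not among the 35, and their alternatives were chosen after seeing the data. The Gaa region kept its direction and stayed above the threshold, with values of 0.82 to 1.26 (PFF+MLi-2 vs PFF) or −0.93 to −0.60 (PFF vs PBS) over 10 fits each, since it was not among the equal numbers of top peaks. The number of lysosomal regions past the limma threshold, 0 in each pairwise comparison, was 1 in PFF+Rab5 ASO vs PFF over regions in all 6 libraries. That region is the Arsb intron named above. It lacks a peak in PFF+MLi-2 and in PBS replicates 1 and 2, and so was not in the fit over shared regions. For the 4-group F test the number past the threshold was 0 to 1 when each library was left out, with 1 (the Asah1 intron) without PFF replicate 1. With the replicate block the number remained 0 in every comparison. The study's methods treat each pregnancy as a replicate and assign its cultures across groups, but the labels do not tie the numbers to pregnancies, so the samples were not treated as paired. The correlation of same-numbered deviations was 0.005 to 0.079, positive in 18 of 18 pairs, and that of differently numbered ones −0.071 to 0.028. In 33 of 36 combinations of a library and another group the best match had the same number, a hint from the data and not from the design. Counts of gained or lost lysosomal regions depended on the call rule. No share over all regions is given beside these counts under the other rules. With at least 2 of 3 against 0 of 3 libraries they were 17 in PFF vs PBS (3 in the main rule), 16 in PFF+MLi-2 vs PFF (4), 16 in PFF+Rab5 ASO vs PFF (6), 17 in PFF+MLi-2 vs PBS (5) and 18 in PFF+Rab5 ASO vs PBS (6). With equal numbers of top peaks the count in PFF+MLi-2 vs PBS was 3. Leaving out each library in turn gave ranges, in the same order, of 5 to 8, 4 to 12, 7 to 10, 6 to 13 and 8 to 11. These ranges sit at or above the main counts because 2 libraries more easily share a call than 3. Leaving out PFF replicate 1 gave the 12 in PFF+MLi-2 vs PFF, PFF+Rab5 ASO replicate 1 the 10 in PFF+Rab5 ASO vs PFF, and PBS replicate 2 the 13 in PFF+MLi-2 vs PBS. The promoter median of PFF+MLi-2 vs PFF was −0.01 and of PFF+Rab5 ASO vs PFF −0.03 on the −log10 p rank. The Arsb intron with −0.44 in PFF+MLi-2 vs PFF had −0.27 without PFF replicate 3. In PFF+MLi-2 vs PBS, Arsa was 0.08 without PFF+MLi-2 replicate 1 and the Asah1 intron −0.31 without PFF+MLi-2 replicate 2. In PFF+Rab5 ASO vs PBS, the Ctsb intron was −0.26 without PFF+Rab5 ASO replicate 1 and the Arsb intron 0.33 without PBS replicate 3. The intron median of PFF+MLi-2 vs PFF was −0.02 without PFF replicate 3, against 0.10, and that of PFF+Rab5 ASO vs PBS −0.02 without PFF+Rab5 ASO replicate 2 or without PBS replicate 3, against −0.18. Apart from the constructions named, the cause was not tested. Summit pileups at the gained and lost regions were 9 to 28 fragments, and the part of depth in an absent peak was not tested.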
